A study of Homo sapiens with 4 samples.

Results

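Exons that lie between a pair of short introns were examined in human embryonic kidney cells with and without RBFOX2. The exons were chosen by length alone: a cassette exon of at least 52 nt and under 300 nt whose 2 flanking introns are each under 300 nt. A cassette exon is an exon that some transcripts include and others leave out. The rule gave 1183 unique exons, listed in 1216 events in 792 genes, of 27483 unique exons and 31408 events in 9172 genes in all. An event is 1 exon with 1 pair of flanking exons.

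The 4 libraries came from HEK293T cells, a human embryonic kidney line, with 2 wild-type clones (genotype WT) and 2 clones genotyped as RBFOX2 KO. Per the labels, all 4 clones went through the same transfection, in which PX459 (a Cas9 plasmid) and pgRGFP supplied guides that flank RBFOX2. Each was grown from 1 sorted cell, so each library stands for 1 clone. Total RNA was depleted of ribosomal RNA and sequenced with strand kept. The deposited table compares a first with a second set of libraries and does not say which set is wild type, so directions are given between sets. Its columns per library match no clone's label and were not used, so values per clone, their spread and the read depth are not given. Each difference, p-value and false discovery rate (FDR) is the authors'.

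How an exon is recognised is thought to depend on its introns. Between long introns the splicing machinery pairs the splice sites across the exon (exon definition), and between short introns it can pair them across the intron (intron definition). Failure of the first mode tends to skip the exon, and failure of the second tends to keep the intron in the mRNA. RBFOX2 is an RNA-binding protein that recognises GCATG, written in DNA letters, mostly in the introns beside its target exons, where its position helps to set whether the exon is included or skipped. The table counts exon skipping only, so reads that keep an intron do not enter these values.

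The sequences below show the exons the results turn on. Each is an exon that lies fully within coding sequence, read from the GENCODE 29 transcript that has the same gene, exon length and intron lengths, with positions in hg19 as deposited. The first group shows passing exons that differ from another passing exon by a few bases at 1 end; capitals mark the bases that the shorter exon lacks (for LEPREL2, those that its 64-nt exon lacks).
MPPE1, 66 nt, chr18:11886712-11886777, minus strand: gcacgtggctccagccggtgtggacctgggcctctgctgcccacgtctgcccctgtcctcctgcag
MPPE1, 69 nt, chr18:11886712-11886780, minus strand: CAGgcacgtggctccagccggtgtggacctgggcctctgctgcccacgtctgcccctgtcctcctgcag
TAF1C, 135 nt, chr16:84213552-84213686, minus strand: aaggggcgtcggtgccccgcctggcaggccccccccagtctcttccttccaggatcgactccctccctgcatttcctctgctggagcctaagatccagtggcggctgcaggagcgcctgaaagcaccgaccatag
TAF1C, 138 nt, chr16:84213552-84213689, minus strand: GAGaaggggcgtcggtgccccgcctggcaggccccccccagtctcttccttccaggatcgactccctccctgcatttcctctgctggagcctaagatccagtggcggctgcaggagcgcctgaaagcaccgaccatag
PREB, 158 nt, chr2:27354542-27354699, minus strand: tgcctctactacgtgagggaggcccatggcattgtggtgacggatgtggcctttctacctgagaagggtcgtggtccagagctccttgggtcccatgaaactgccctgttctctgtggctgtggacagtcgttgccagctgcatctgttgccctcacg
PREB, 160 nt, chr2:27354540-27354699, minus strand: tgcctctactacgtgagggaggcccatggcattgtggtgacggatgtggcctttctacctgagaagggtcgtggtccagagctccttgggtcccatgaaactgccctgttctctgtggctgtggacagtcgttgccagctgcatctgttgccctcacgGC
LEPREL2, 68 nt, chr12:6942906-6942973, plus strand: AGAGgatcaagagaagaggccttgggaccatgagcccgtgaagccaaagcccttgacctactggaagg

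The second group holds coding exons with low p-values or large differences, and the FASTK exons that lie within each other's events. It also holds the CARM1 exon, which has neither and was chosen after its values were seen. They are in lower case throughout.
FASTK, 136 nt, chr7:150774188-150774323, minus strand: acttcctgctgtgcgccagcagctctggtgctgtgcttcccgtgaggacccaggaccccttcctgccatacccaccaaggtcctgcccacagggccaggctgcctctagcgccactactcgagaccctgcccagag
FASTK, 115 nt, chr7:150774000-150774114, minus strand: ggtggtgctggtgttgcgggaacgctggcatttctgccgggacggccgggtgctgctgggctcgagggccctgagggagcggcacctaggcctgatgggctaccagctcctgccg
MAP4K2, 132 nt, chr11:64568372-64568503, minus strand: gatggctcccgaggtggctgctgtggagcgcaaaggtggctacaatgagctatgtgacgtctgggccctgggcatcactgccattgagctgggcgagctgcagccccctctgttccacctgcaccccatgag
PCBP4, 129 nt, chr3:51993911-51994039, minus strand: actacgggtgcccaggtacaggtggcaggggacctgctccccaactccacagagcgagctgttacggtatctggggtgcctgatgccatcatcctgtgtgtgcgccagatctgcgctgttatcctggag
C9orf142, 61 nt, chr9:139887092-139887152, plus strand: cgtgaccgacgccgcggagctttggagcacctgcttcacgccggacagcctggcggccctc
SHC1, 54 nt, chr1:154940680-154940733, minus strand: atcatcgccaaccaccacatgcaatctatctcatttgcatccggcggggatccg
NEURL4, 66 nt, chr17:7230484-7230549, minus strand: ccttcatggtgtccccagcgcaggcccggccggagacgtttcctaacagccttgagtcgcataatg
CARM1, 69 nt, chr19:11032051-11032119, plus strand: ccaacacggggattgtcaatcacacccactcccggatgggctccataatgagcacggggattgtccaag

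The third group holds the coding passing exons with the RBFOX element; capitals mark GCATG.
TMEM141, 84 nt, chr9:139686399-139686482, plus strand: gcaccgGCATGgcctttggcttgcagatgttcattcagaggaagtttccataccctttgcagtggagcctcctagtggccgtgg
C16orf59, 99 nt, chr16:2510284-2510382, plus strand: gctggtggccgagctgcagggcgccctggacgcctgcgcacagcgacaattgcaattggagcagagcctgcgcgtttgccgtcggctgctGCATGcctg
SSH3, 189 nt, chr11:67075020-67075208, plus strand: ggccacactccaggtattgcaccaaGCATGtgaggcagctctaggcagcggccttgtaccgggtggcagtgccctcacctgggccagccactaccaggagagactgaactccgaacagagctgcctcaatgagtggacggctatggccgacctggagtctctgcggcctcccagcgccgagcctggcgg

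Few of the exons between short introns differed between the sets, in either direction. An event passed at an FDR under 0.05 with an absolute difference in inclusion level of at least 0.1; inclusion level runs from 0 to 1 and is the portion of junction reads, scaled for length, that carry the exon. Of the 1183 exons, 49 exons in 40 genes passed, or 4.14% (Wilson 95% interval 3.15% to 5.43%). Over all unique exons, 1575 of 27483 passed, 5.73% (5.46% to 6.01%). The share was 5.55% for the other exons of the same lengths and 4.68% for those of them with 1 short intron alone. It was 6.16% between introns that are both over 10000 nt. This last class, here and below, holds exons of any length (12 to 3885 nt). Higher inclusion in the first set was found for 30 exons, 2.54% against 3.08% over all exons. The second set was higher for 19 exons, 1.61% against 2.65%. The first set's share of the passing exons was 61.2% (47.2% to 73.6%), an interval that holds the 53.7% over all passing exons. Intervals cover counting error only, since exons of 1 gene are not independent, and the shares were not tested against each other. Where all events of these exons were read, including those with longer introns, 57 passed, or 4.82%.

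**Figure D1:**
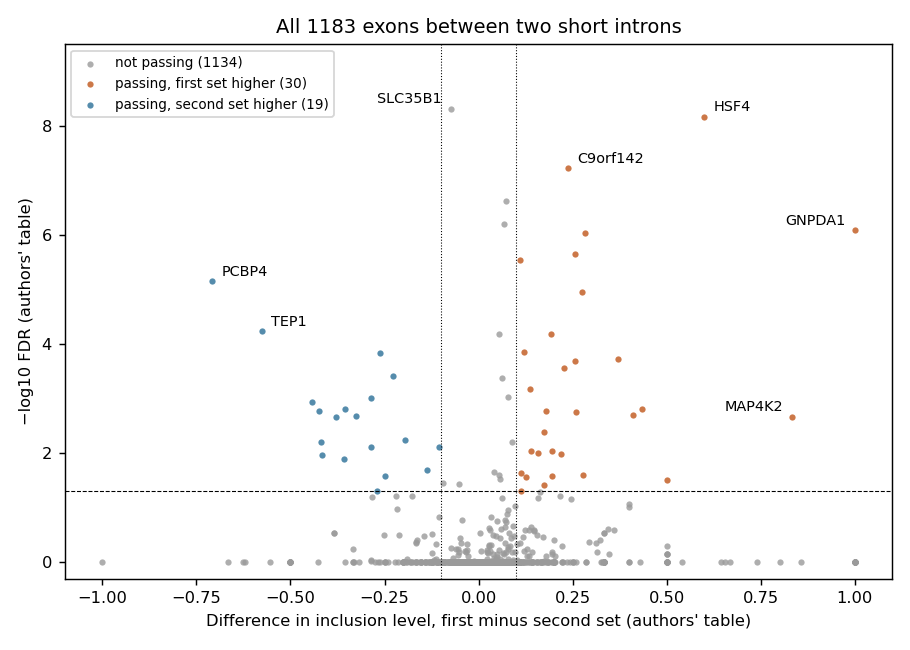
Each point is 1 of the 1183 exons between introns under 300 nt; the horizontal axis is the difference in inclusion level (first minus second set) and the vertical axis −log10 of the FDR, both from the authors' table. The dashed line is an FDR of 0.05 and the dotted lines a difference of 0.1; 30 exons pass on the right and 19 on the left, and most others lie at an FDR of 1 (0 on the axis).

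The differences were small for most of these exons. The median absolute difference was 0.035, against 0.048 over all exons. It was 0.077 over the 1981 exons, of any length, between introns that are both over 10000 nt. Exons with 1 short intron were close, with a median of 0.0385. In 297 exons the difference reached 0.1 (25.1%, against 31.3% over all exons and 26.3% with 1 short intron), and 49 of these 297 passed. The p-value was 1 for 625 exons, 52.8% against 49.4% over all exons. That share was 51.2% with 1 short intron and 53.1% between introns over 10000 nt. Among the exons that did not pass, 39 had a difference of at least 0.5, and 35 of these had a p-value of 1. Counted at any size, the difference was above 0 for 674 exons and below 0 for 487, 57% above (54.1% to 59.8%) against 52.8% (52.2% to 53.4%) over all exons. These shares were not tested against each other, and the exons with 1 short intron had 55.4% above 0.

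The passing share was also read along intron length, over all exons of 52 nt to under 300 nt grouped by the longer intron. It was 4.69% (6 of 128) for introns under 100 nt, 4.35% (20 of 460) from 100 to under 200 nt and 3.76% (23 of 612) from 200 to under 300 nt. Just outside the rule, from 300 to under 400 nt, 24 of 573 exons passed, or 4.19%. The next groups gave 5.16% from 400 to under 1000 nt (145 of 2812) and 4.95% from 1000 to under 10000 nt (710 of 14355; 4.6% to 5.31%). At 10000 nt and over, 417 of 6133 passed, or 6.8% (6.2% to 7.46%). The shares on either side of 300 nt have overlapping intervals, and 2.52% to 5.58% just inside stood beside 2.83% to 6.16% just outside. An exon with several events can enter more than 1 group.

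**Figure D2:**
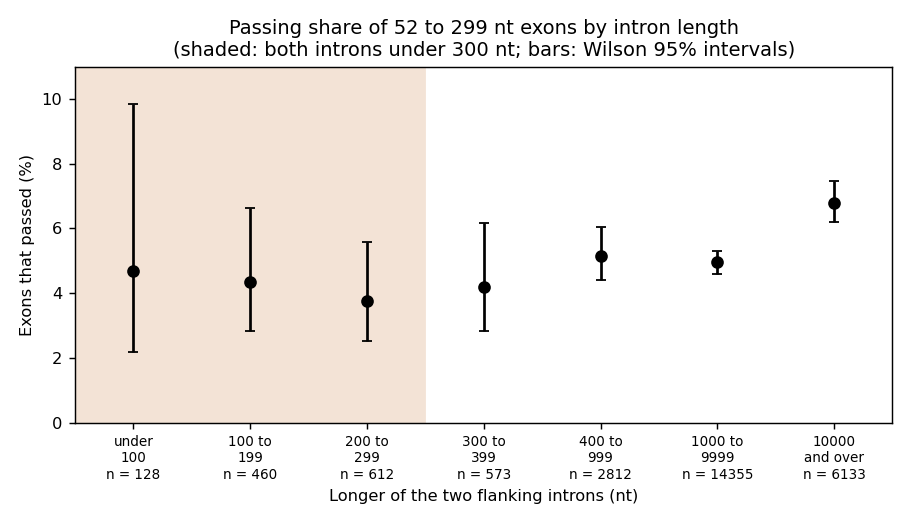
The points give the percentage of exons of these lengths that passed, by the length of the longer flanking intron in nt, with Wilson 95% intervals as bars and the number of exons under each point. The 3 shaded groups below 300 nt lie between 3.76% and 4.69%, the group of 10000 nt and over at 6.8%.

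Within the rule, the passing share was also read by exon length. Of the 452 exons under 100 nt 22 passed (4.87%), of the 425 from 100 to under 150 nt 19 passed (4.47%), and of the 218 from 150 to under 200 nt 7 passed (3.21%). Only 1 of 88 exons of 200 nt or more passed, the 221-nt exon of MIB2. The intervals of these shares overlap. The passing exons had a median length of 102 nt, with a median intron of 138 nt before and 149 nt after the exon, in the direction of transcription. Their flanking exons were 252 to 671 nt apart, with a median of 427 nt.

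**Figure D3:**
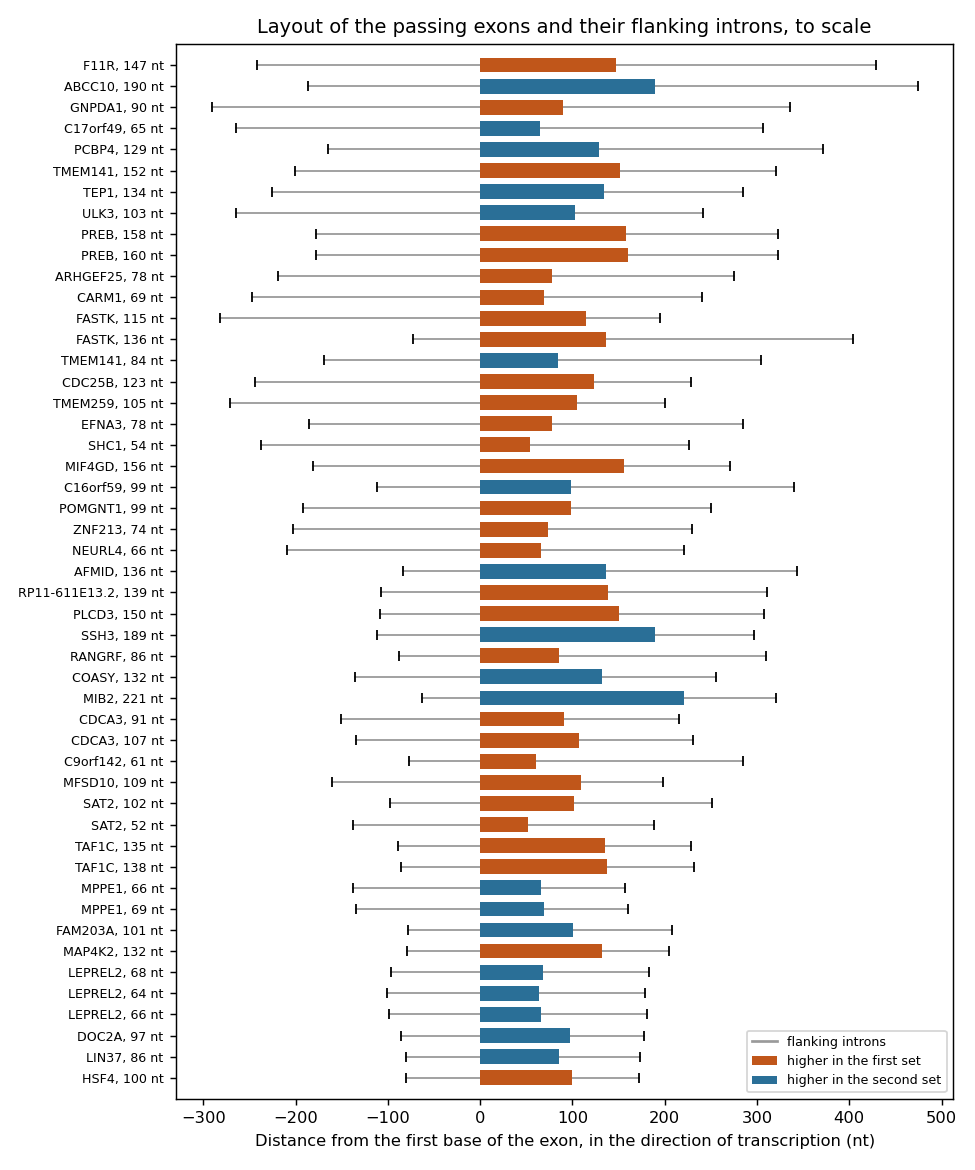
Each row is a passing exon (bar) with its 2 flanking introns (line) drawn to scale in nt from the exon's first base in the direction of transcription; ticks mark the flanking exons and colours the set with higher inclusion. The rows run from 252 nt between flanking exons (HSF4, bottom) to 671 nt (F11R, top), and both colours occur at both ends of the range.

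The lowest p-values among the passing exons belonged to exons with higher inclusion in the first set. HSF4 (ENSG00000102878) encodes a heat shock transcription factor known for its part in the lens. Its 100-nt exon (chromosome 16, 67201206 to 67201305, plus strand), between introns of 80 and 72 nt, had a difference of 0.6 (FDR 6.78e-09) in the authors' deposited table. No transcript annotated as protein-coding that the HSF4 exon matched translates any of it. C9orf142, now PAXX (ENSG00000148362), encodes a factor of DNA end joining. Its 61-nt coding exon was listed at 0.238 (FDR 6.02e-08) in the authors' deposited table, after an intron of 77 nt and before one of 224 nt. With a following intron of 352 nt, the authors' deposited table gave the same C9orf142 exon 0.001 at a p-value of 0.577. The call thus belonged to 1 pair of flanking exons.

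GNPDA1 (ENSG00000113552) encodes a glucosamine-6-phosphate deaminase, and its 90-nt exon (chromosome 5, 141391853 to 141391942, minus strand) had the largest difference of all passing exons. The authors' deposited table listed it at 1 (FDR 8.21e-07). For this pair of flanking exons, that is full inclusion in the first set and full skipping in the second. Of all 1183 exons, 11 had an absolute difference of exactly 1, and 10 of these did not pass. With a preceding intron of 617 nt in place of 291 nt, the GNPDA1 exon had 0.032 at a p-value of 0.371 in the authors' deposited table. No transcript annotated as protein-coding that the GNPDA1 exon matched translates any of it. NEURL4 encodes a partner of ubiquitin ligases at the centriole, and its 66-nt coding exon had 0.283 (FDR 9.21e-07) in the authors' deposited table. SHC1 encodes an adaptor that couples receptor tyrosine kinases to RAS, and its 54-nt coding exon was listed at 0.11 (FDR 2.87e-06) in the authors' deposited table. That difference is just above the minimum for a call. Both lengths are divisible by 3.

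FASTK, which encodes a mitochondrial RNA-binding protein, held a pair of passing exons that lie within each other's events. The 136-nt exon (chromosome 7, 150774188 to 150774323, minus strand) comes first, and the 115-nt exon (150774000 to 150774114) follows after 73 nt. The authors' deposited table listed the 136-nt exon of FASTK at 0.257 (FDR 2.26e-06) where the following intron of 268 nt spans the 115-nt exon. For the 115-nt exon it gave 0.275 (FDR 1.09e-05) where the preceding intron of 282 nt spans the 136-nt exon. Those events hold no inclusion junction of the other exon. Both span the same 477 nt between flanking exons, so they share 1 skipping junction and are not separate observations. Where each is flanked by the other, FASTK had 0.065 (136 nt, p-value 0.0879) and 0.04 (115 nt, p-value 0.576) in the authors' deposited table, and neither passed. Of the 49 passing exons these 2 alone had another listed exon inside an intron, against 27 of all 1183.

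RANGRF, PREB, ARHGEF25, CDC25B and EFNA3 followed among the exons higher in the first set, by p-value; PREB is described with the overlapping exons. RANGRF encodes a factor that releases nucleotide from the nuclear transport GTPase RAN, and its 86-nt exon had 0.192 (FDR 6.46e-05) in the authors' deposited table. ARHGEF25 encodes an exchange factor for small GTPases; its 78-nt exon had 0.371 (FDR 0.000188) in the authors' deposited table. CDC25B encodes a phosphatase that activates cyclin-dependent kinases at entry into mitosis, and the authors' deposited table gave its 123-nt exon 0.256 (FDR 0.000208). The 78-nt exon of EFNA3, an ephrin ligand, was listed at 0.434 (FDR 0.00152) in the authors' deposited table. The exons of RANGRF, ARHGEF25, CDC25B and EFNA3 are fully coding, and those of ARHGEF25, CDC25B and EFNA3 have a length divisible by 3.

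The exons higher in the second set were led by PCBP4 and TEP1. PCBP4 encodes a protein that binds poly(C) stretches in RNA. Its 129-nt coding exon (chromosome 3, 51993911 to 51994039, minus strand), between introns of 165 and 243 nt, had -0.708 (FDR 7.05e-06) in the authors' deposited table. TEP1 encodes a protein of telomerase and vault particles, and its 134-nt coding exon (minus strand, chromosome 14, 20849712 to 20849845) had -0.575 (FDR 5.76e-05) in the authors' deposited table. MIB2 encodes a ubiquitin ligase of the Notch pathway, and its 221-nt exon had -0.263 (FDR 0.000143) in the authors' deposited table. In MIB2 a 195-nt exon with the same end had -0.217 (FDR 0.105) in the authors' deposited table, short of a call.

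The rest of the second set's leading exons ranged from -0.442 to -0.106. C16orf59, now TEDC2, encodes a partner of delta and epsilon tubulin, and the authors' deposited table gave its 99-nt exon -0.286 (FDR 0.000988). LIN37 encodes a subunit of the DREAM complex, which represses cell cycle genes; its 86-nt exon had -0.327 (FDR 0.00206) in the authors' deposited table. For FAM203A, now HGH1, a 101-nt exon was listed at -0.38 (FDR 0.00214) in the authors' deposited table. ULK3, a protein kinase, had -0.196 (FDR 0.00565) for its 103-nt exon in the authors' deposited table. ABCC10, a drug efflux transporter, had -0.285 (FDR 0.00776) for its 190-nt exon in the authors' deposited table. COASY, which carries out the last steps of coenzyme A synthesis, had -0.106 (FDR 0.00778) for a 132-nt exon in the authors' deposited table. Its 192-nt exon with the same end did not pass and had a small difference of the opposite sign, 0.004 (FDR 0.283), in the authors' deposited table. Of these 6 exons, 5 are fully coding and that of COASY is partly coding.

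**Figure D4:**
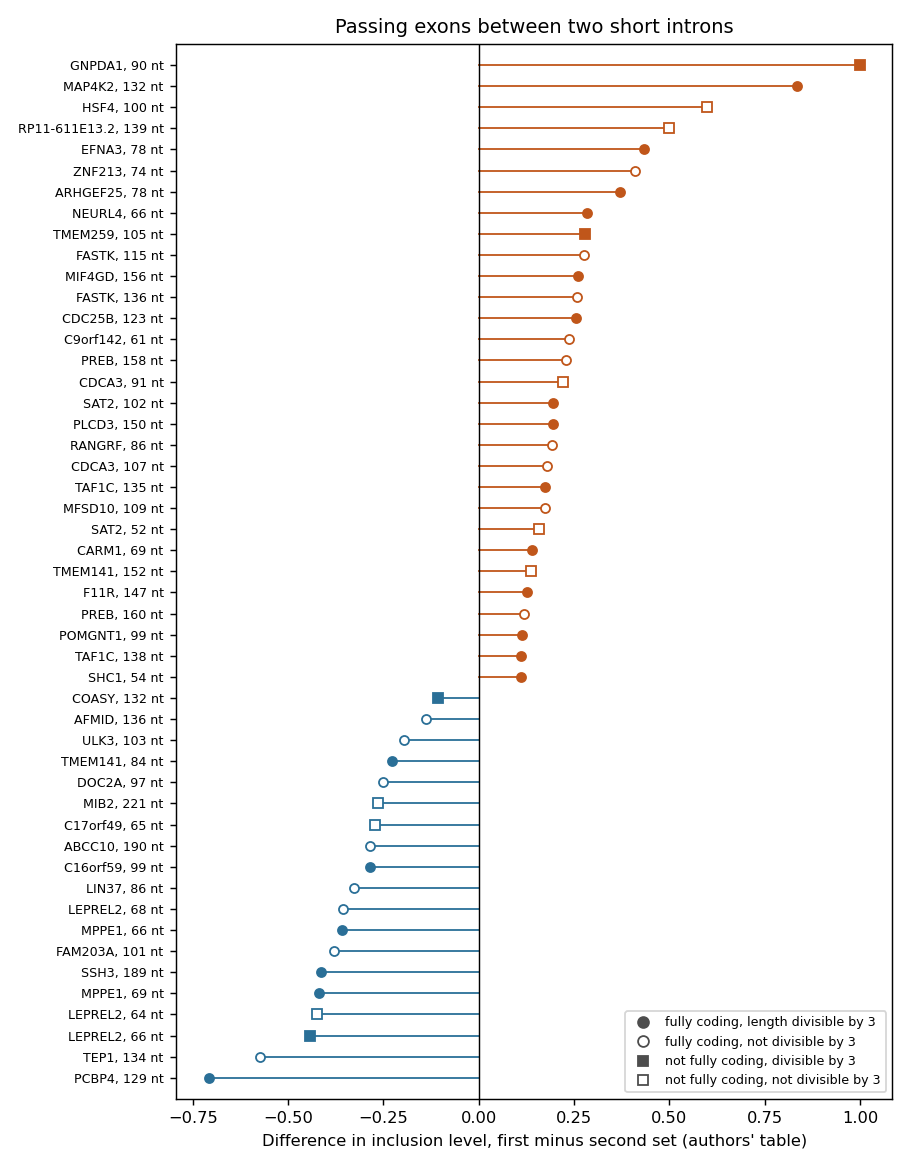
Each row is 1 of the 49 passing exons with its difference in inclusion level (first minus second set) from the authors' table; the marker shows coding status and whether the length is divisible by 3. The 30 positive values run from 0.11 (SHC1) to 1 (GNPDA1) and the 19 negative values from -0.106 (COASY) to -0.708 (PCBP4).

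Passing exons that overlap each other in 1 gene had the same direction. Among the 1061 groups of overlapping exons between short introns, 43 held a passing exon and 5 held more than 1, with 11 passing exons in all. Junction reads of the shared end are common to the exons of a group, so these are not separate observations. LEPREL2, now P3H3, of the collagen prolyl 3-hydroxylase family, held exons of 64, 66 and 68 nt whose starts lie 2 nt apart at the capitals shown above. The authors' deposited table gave these LEPREL2 exons -0.423, -0.442 and -0.356, with FDRs of 0.0017, 0.00116 and 0.00153. MPPE1, a phosphodiesterase of glycolipid anchor remodelling, had -0.359 for the 66-nt and -0.419 for the 69-nt exon in the authors' deposited table, with FDRs of 0.0127 and 0.00634. Their starts are 3 nt apart, which leaves the reading frame unchanged between them.

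In the other 3 groups the first set was higher. TAF1C encodes a subunit of the RNA polymerase I factor SL1, and its exons of 135 and 138 nt had 0.175 and 0.112 in the authors' deposited table (FDRs 0.00414 and 0.0228). PREB encodes the exchange factor that starts COPII vesicle coats, and its exons of 158 and 160 nt had 0.228 and 0.12 in the authors' deposited table (FDRs 0.00027 and 0.000138). They differ at the downstream end by 2 nt. CDCA3, a cell division factor, had exons of 91 and 107 nt at 0.22 and 0.179 in the authors' deposited table (FDRs 0.0103 and 0.0017). A shared direction did not extend to a shared call in every group. In AFMID, a kynurenine pathway enzyme, the 136-nt exon had -0.137 (FDR 0.0199) in the authors' deposited table, and a 151-nt exon with the same start had -0.555 at a p-value of 1.

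TMEM141, a small membrane protein, was the 1 gene with passing exons in both directions. Its 152-nt and 84-nt exons flank each other across an intron of 169 nt. The authors' deposited table listed the 152-nt exon of TMEM141 at 0.137 (FDR 0.000676) and the 84-nt exon at -0.228 (FDR 0.000386). A 67-nt exon of TMEM141 that ends where the 152-nt exon ends had 0.073 (FDR 2.35e-07) in the authors' deposited table, short of the minimum difference. Where the flanking exon was the next one beyond the neighbour, the authors' deposited table gave TMEM141 -0.077 for the 152-nt and -0.027 for the 84-nt exon, both at a p-value of 1.

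An end shared with another listed exon was common among these exons. It was found for 302 of the 1183 (25.5%, 23.1% to 28.1%), against 18% over all exons and 6.36% of those between introns over 10000 nt. Exons with 1 short intron had it nearly as often, at 23.7% (22.5% to 25%). Among the passing exons 21 of 49 shared an end, 42.9% (30% to 56.7%), against 24.8% of the 1134 that did not pass. Over all passing exons of the table the share was 22.4%, and over passing exons with 1 short intron 30.3%. With 1 exon per overlapping group, 15 of 43 passing (34.9%, 22.4% to 49.8%) and 16.3% of 1018 other groups shared an end. These shares were not tested.

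The exons between short introns were more often coding and richer in G and C. GENCODE 29 held an exon of the same structure for 1155 of 1183 (97.6%) and for 90.2% of all exons. Of the matched exons 81.6% (79.2% to 83.7%) were fully coding, against 66.1% (65.5% to 66.7%) over all exons. Among the passing exons 37 of 49 were fully coding, or 75.5% (61.9% to 85.4%). The median GC content was 59.3% in these exons, 50% over all matched exons and 46.7% between introns over 10000 nt. With 1 short intron it was 55.4%, and 67.7% of matched exons were fully coding. Chromosomes 16, 17 and 19 held 31.8% of the exons, against 18.5% of all exons and 26.1% of those with 1 short intron. No test was made of these differences.

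A length divisible by 3 keeps the reading frame when a coding exon is skipped. The length was a multiple of 3 in 471 of 1183 exons, 39.8% (37.1% to 42.6%), against 40.7% over all exons. Among fully coding exons the share was lower than over all fully coding exons, at 41.3% (389 of 942; 38.2% to 44.5%) against 46.2% (45.5% to 47%), and the difference was not tested. Of the 49 passing exons 24 had such a length, 49% (35.6% to 62.5%), and 46% of all passing exons did. It was 16 of the 30 with the first set higher (53.3%, 36.1% to 69.8%) and 8 of the 19 with the second set higher (42.1%, 23.1% to 63.7%), with overlapping intervals. Passing exons that matched only transcripts annotated for nonsense-mediated decay numbered 0 of 49 (up to 7.27%), against 125 of 1429 matched passing exons of the table (8.75%) and 86 of 1155 matched exons between short introns (7.45%).

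**Figure D5:**
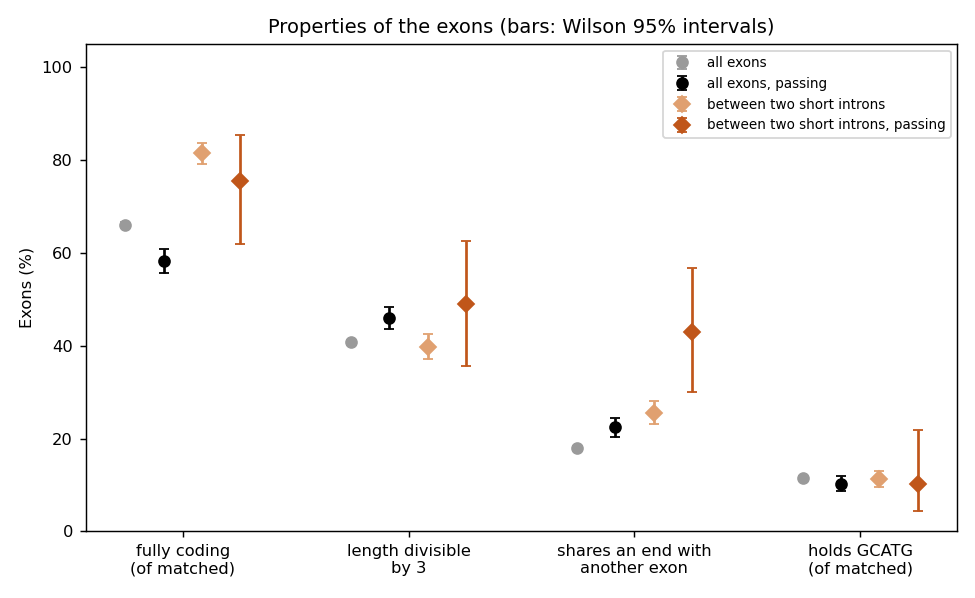
The points give the percentage of exons with each property, with Wilson 95% intervals as bars, for all exons (grey), all passing exons (black), exons between short introns (light diamonds) and those of them that passed (dark diamonds). Exons between short introns are fully coding in 81.6% against 66.1% over all exons, while the shares with GCATG are 11.2% and 11.6%.

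The share of exons that hold the RBFOX element was close to that elsewhere. GCATG on the RNA strand was found in 129 of 1155 matched exons, 11.2% (9.48% to 13.1%), against 10.9% of the other matched exons of these lengths. Its reverse complement, CATGC, which overlaps it in GCATGC, was found in 12.5% and 11%. Among the passing exons 5 of 49 held GCATG, those of HSF4, C16orf59, SSH3 and both of TMEM141. That is 10.2%, and over all matched passing exons the share was also 10.2% (146 of 1429). The 84-nt exon of TMEM141 and those of C16orf59 and SSH3, shown above, were higher in the second set, and the exon of HSF4 and the 152-nt exon of TMEM141 in the first. SSH3 encodes a phosphatase of the actin factor cofilin, and its 189-nt exon had -0.415 (FDR 0.0107) in the authors' deposited table. The flanking introns, where RBFOX proteins mostly bind, were not analysed here.

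Genes known for exons that respond to RBFOX proteins held 1 exon of this kind. Of a list of 16 such genes, 15 had listed exons, 77 in all. Only 1 of these lay between short introns, beside 1183 of all 27483 exons. It is a 92-nt coding exon of TSC2 (chromosome 16, 2138049 to 2138140, plus strand). The list names genes only, so this exon was not shown to be one that responds to RBFOX proteins. TSC2 restrains the mTOR pathway. The authors' deposited table listed the TSC2 exon at -0.014 with a p-value of 1. Over all exons of these genes 6 of 77 passed (7.79%), beside 5.73% of all 27483 exons. Of these 6 exons, 3 had a positive and 3 a negative difference. The count is small and no test compared the shares, so no enrichment is read from it.

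The gene lists, defined by symbol, held 241 of the exons together, and 3 of these passed, 1.24% (0.424% to 3.6%) beside 4.14% of all 1183. These shares were not tested against each other, and the lists were chosen with earlier results of these data known. The pooled share of the lists over all exons of the table was not computed. The list of RNA processing factors held 43 exons and 0 passed, with a median absolute difference of 0.012. That list also takes in symbols that begin with POLR, which are RNA polymerase subunits. Ribosomal protein genes, here all symbols that begin with RPL, RPS, MRPL or MRPS, held 22 and 0 passed (median 0.001). Proteasome genes held 17 and 0 passed (median 0.01). Over all exons of the table, 22 of 539 in RNA processing genes (4.08%), 13 of 355 in ribosomal protein genes (3.66%) and 1 of 117 in proteasome genes (0.855%) passed. At an unadjusted p-value under 0.05, these 3 groups had 0, 0 and 1 exons. Chromatin regulators held 27, solute carriers 23, ubiquitin pathway genes 21 and DNA repair and replication genes 14, all with 0 passing and medians of 0.047, 0.06, 0.022 and 0.0495, beside 0.035 over all 1183. Over all exons of the table, 5.36% passed in chromatin genes, 8.29% in solute carriers, 4.71% in ubiquitin pathway genes and 5.69% in DNA repair and replication genes. Their counts among the exons between short introns at an unadjusted p-value under 0.05 were 4, 3, 0 and 1, against 115 of all 1183 (9.72%) and 13.1% over all exons. Aminoacyl-tRNA synthetases held 10 exons, cytoskeleton and motor genes 5 and the respiratory chain 2, with 0 passing and 2, 0 and 0 under that unadjusted p-value. Their medians were 0.023, 0.022 and 0.0035. In these lists 3.82%, 5.3% and 2.84% of all exons passed.

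The 3 passing exons of these groups were all higher in the first set. MAP4K2, a kinase upstream of JNK, was the 1 of 20 exons in kinase genes, and its 132-nt coding exon (chromosome 11, 64568372 to 64568503, minus strand) had 0.834 (FDR 0.00213) in the authors' deposited table. Its introns are 79 and 73 nt long. ZNF213 was the 1 of 9 exons in zinc finger genes, with 0.411 (FDR 0.00198) for an exon of 74 nt in the authors' deposited table. With a following intron of 1870 nt, ZNF213 had 0.131 at a p-value of 1 in the authors' deposited table. The third, ARHGEF25, was the 1 of 27 exons in the list of vesicle trafficking genes and regulators of small GTPases, and is described above. Over all exons, 4.64% passed in kinase genes, 8.08% in zinc finger genes and 5.86% in the last list.

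Several passing exons outside the naming rule lie in well-studied genes; they were chosen after their values were seen. CARM1 methylates arginines of histones and splicing factors, and the authors' deposited table gave its 69-nt coding exon 0.139 (FDR 0.00926). MIF4GD, a partner in the translation of histone mRNAs, had 0.26 (FDR 0.00179) for a 156-nt exon in the authors' deposited table. SAT2, an acetyltransferase, held passing exons of 102 and 52 nt at 0.194 and 0.157 in the authors' deposited table (FDRs 0.00925 and 0.00996), 318 nt apart. F11R, a tight junction adhesion molecule, had 0.126 (FDR 0.0276) for a 147-nt exon in the authors' deposited table. POMGNT1, an enzyme of O-mannose glycosylation, had 0.114 (FDR 0.0493) for a 99-nt exon in the authors' deposited table, close to the limit. DOC2A, a calcium sensor of vesicle release, had -0.25 (FDR 0.0261) for a 97-nt exon in the authors' deposited table. PRANCR is a long noncoding RNA, and its 139-nt exon had 0.5 (FDR 0.031) in the authors' deposited table. The remaining passing exons were those of TMEM259 (0.278), PLCD3 (0.194), MFSD10 (0.173) and C17orf49 (-0.271), as differences in the authors' deposited table.

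Strong p-values also occurred below the minimum difference. The FDR was under 0.05 for 61 exons (5.16%, against 6.78% over all exons), and 12 of them had a difference under 0.1. SLC35B1, a transporter of the endoplasmic reticulum, had the lowest p-value of all 1183 exons in the authors' deposited table, 1.78e-11. The difference of this 102-nt coding exon was -0.073 in the authors' deposited table. PXMP2, a peroxisomal membrane channel, had 0.068 (FDR 6.3e-07) for an 89-nt exon in the authors' deposited table. No exon between short introns had a p-value listed as 0, beside 37 of all 27483 exons and 36 of the 1575 passing exons. Such p-values were rare, so the count of 0 here is not a contrast with the other exons.

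No exon passed in the genes with the most exons of this kind, beside 4.14% of all 1183. These genes hold few exons each, so the count of 0 is not a contrast with the other exons. FASN, the fatty acid synthase, and FLNA, the actin crosslinker filamin A, had 7 each. The differences of the FASN exons lay between -0.006 and 0.004 in the authors' deposited table, all at a p-value of 1. Those of FLNA lay between -0.014 and 0.027, with a lowest p-value of 0.0619 in the authors' deposited table. ACADVL, which oxidises very long-chain fatty acids in mitochondria, had 6 with differences from 0.048 to 0.171 in the authors' deposited table, all above 0, and a lowest p-value of 0.9. KMT2D and NDOR1 also had 6 exons each, with 0 passing. Their differences ran from -0.022 to 0.054 and from -0.153 to 0.1 in the authors' deposited table. In all, 251 genes had 2 or more exons of this kind, and 8 of them had 2 or more that passed.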

How the data were processed

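The 4 RNA-seq libraries, 2 wild-type and 2 RBFOX2 knockout clones by their titles, enter 1 table, the skipped-exon junction output of rMATS, per the file headers. The submitters' processing notes name hg19 and STAR 2.7.3a; the rMATS version, annotation and filters are not given in the sources used here. The authors deposited, per event, a p-value, an FDR and the difference in inclusion level (another unit, from -1 to 1), read as first minus second set. Per the file headers, inclusion and skipping reads are scaled by effective lengths, another unit in nt that the authors deposited: 94 for skipping and up to 188 for inclusion. The 6 columns of values per library match no label and were not used, so depth, spread between clones, junction count models, pairing and leaving out a library could not be had, nor could inclusion per library.

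Events with the same exon position and strand were merged into 1 exon. An exon passed if any of its events with both introns under 300 nt passed, and its values are those of the lowest p-value among its passing events, or among all its events where none passed. Exons with other introns were called over all events of their class. Coding status and sequence came from GENCODE 29 (GRCh38 transcripts), matched by gene, exon length and both intron lengths with no coordinate. Fully coding means that a matched transcript annotated as protein-coding translates the whole exon. Coding sequence of other transcript types, such as decay transcripts, was not counted. Exons overlapping in a gene formed a group. Shares have Wilson 95% intervals. The members and gene lists were chosen with earlier results of these data known. Of 9172 gene identifiers, 9054 had a current symbol.

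Named exons were, with 1 per gene, the 12 of lowest p-value in each direction, exons in the RBFOX target list, the 3 genes with most exons (ties by symbol) and the 3 of lowest p-value below the minimum difference. The 14 lists were matched by symbol or its first or last letters, and 1 of them was the RBFOX target list. Other FDR limits, minimum differences, intron limits and ways to collapse exons were tried. The rule and calls were tested on simulated data. The work ran in Python 3.11.15 with numpy 2.4.6, pandas 2.3.3, matplotlib 3.10.9 and scipy 1.17.1.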

Additional observations from a re-analysis of the deposited data

How the results depend on the processing

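The count of 49 passing exons stayed between 36 (FDR under 0.01) and 73 (introns under 400 nt) under the alternatives run, with 3 exceptions. These were 10 exons under a Bonferroni correction over the table, 32 at a minimum difference of 0.2 and 26 with introns under 200 nt; each of these limits lowers the count by construction. The passing share of 4.14% became 0.845% under Bonferroni correction, 3.04% at an FDR under 0.01 and 2.7% at a minimum difference of 0.2, and otherwise stayed between 4.04% and 5.16%. The first set's share of passing exons was 80% (8 of 10) under Bonferroni correction and 50% (16 of 32) at a minimum difference of 0.2, beside 61.2% in the report; the cause was not tested. Over the other alternatives it ranged from 57.7% to 64.9%. Lengths were divisible by 3 in 39.8% of the exons, 49% of those passing and 53.3% of those passing with the first set higher. Of the 49 exons, 36 kept their call at an FDR under 0.01, 10 under Bonferroni correction and 32 at a minimum difference of 0.2. Restricting the frame share to fully coding exons and counting 1 exon per overlapping group were chosen after seeing the data. No paired analysis was possible because no column names a clone or its number, and for the same reason no library was left out in turn. How far 1 clone decides a call, and how depth limits it, is therefore not shown here.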
